A study of Mus musculus with 6 samples.

Results

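The cytosolic ribosomal proteins are the proteins that, with ribosomal RNA, build the large and small subunits of the ribosome in the cytosol. Features were taken as members when their mouse symbol had the form Rpl, Rps, Rplp or Rpsp followed by a number (or was Rpsa), with pseudogenes (ps in the symbol) and the Rps6k kinases left out. The rule found 60 features of 25206 on the arrays, 38 of the large subunit and 22 of the small subunit, on 19 chromosomes. RefSeq lists 58 of them as protein-coding genes and 2, Rpl6l and Rps4l, as pseudogenes, which were kept because their symbols lack ps. The assembly holds 84 protein-coding symbols of this form, of which 58 had a named feature. Rpl13a, Rps6, Rpl11, Rplp2, Rps27a, Rpl22l1, Rpl39 and Rps4x were among the genes not analysed here.

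The samples were peritoneal macrophages of C57BL/6J mice, 3 Tet2-deficient (Tet2-/-) and 3 wild-type littermates, with 1 array per mouse. The cells had been drawn into the peritoneum by 1 mL of 4% Brewer's thioglycollate, an irritant that recruits monocytes, and were collected on day 4 and plated with 10% fetal bovine serum. Both genotypes received lipopolysaccharide (10 ng/ml), a bacterial cell wall component, with interferon gamma (2 ng/ml) for 10 h, so every comparison is between stimulated cells, and no unstimulated group was analysed here. The question named in the series' design is which genes depend on Tet2, an enzyme that oxidises methylated cytosine, under an inflammatory stimulus. Values are log2 expression, and a change is the Tet2-deficient mean minus the wild-type mean on that scale.

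Ribosomal protein genes are among the most highly transcribed genes of a cell, and their products are needed in equal numbers, since each ribosome holds a single copy of most of them. Their messenger RNAs begin with a cytidine followed by an unbroken run of pyrimidines, the 5′ terminal oligopyrimidine (TOP) motif, through which mTORC1 and Larp1 set how strongly they are translated. Several ribosomal proteins also work outside the ribosome. Rpl5 holds back the p53 regulator Mdm2. Rpl13a, which was not analysed here, is freed from ribosomes in interferon-treated myeloid cells and joins the GAIT complex that silences inflammatory transcripts.

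The windows printed here show runs of C and T that cover an annotated start. They were picked from the 12 member windows that hold a run, with their changes known, so that genes with changes below, near and above 0 are included. The sequences are RefSeq's for GRCm38.p6, which may differ from the build of the array design. Each holds the 40 bases before an annotated start and the 20 bases from it onward, with the run of C and T that covers the start base in capitals. The run may begin before the start base, and that base may be T, so a run counted here need not be a TOP motif. Rps20, the member above the array median with the largest negative change, had no entry.

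Rps9: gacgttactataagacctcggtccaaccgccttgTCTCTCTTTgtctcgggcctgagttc

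Rpl27a: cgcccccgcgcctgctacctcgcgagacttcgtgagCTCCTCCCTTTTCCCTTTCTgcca

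Rps27: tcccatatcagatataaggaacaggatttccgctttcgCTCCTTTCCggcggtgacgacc

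Rpl34: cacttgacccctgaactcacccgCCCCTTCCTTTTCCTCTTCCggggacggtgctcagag

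Rps15a: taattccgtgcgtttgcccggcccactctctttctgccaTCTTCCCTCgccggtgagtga

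These windows lie at chr7:3704001-3704060 (plus strand) for Rps9, chr7:109519155-109519214 (plus) for Rpl27a, chr3:90213629-90213688 (minus) for Rps27, chr3:130730318-130730377 (minus) for Rpl34 and chr7:118116128-118116187 (minus) for Rps15a. The changes of these genes were below 0 (Rps9, Rpl27a), near 0 (Rps27) and above 0 (Rpl34, Rps15a). Several members with larger negative changes than Rps9, namely Rps3a1, Rps27l, Rplp0, Rpl41 and Rps19, had windows without a run over the start base. Rpl14 and Rpl27a also had larger negative changes than Rps9, and their windows held a run. Of the 60 members, 46 matched 58 windows, and a run of 5 or more C or T over the start base stood in 12 of them (20.7%), against 10.1% of all 32851 mouse windows. The 12 genes with such a run had a median change of -0.11 with 6 below 0, and the 34 without had a median of -0.20 with 29 below 0. An annotated start can lie some bases from the used start, so an absent run says only that these letters are not at that position.

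Among the motifs searched over the whole 300 bases of each window, CCGGAAG, the core bound by the Ets factor GABP, was in 18 of 58 member windows (31%) against 8.86% of all windows, counting both strands. On the gene's strand it fell between 40 bases before and 20 bases after the start in 6 members: Rps3a1, Rps27l, Rps21, Rpl31, Rpl6 and Rpl37, whose changes ran from -0.68 (Rps3a1) to 0.03 (Rpl37). The windows of Rps3a1 and Rps27l are shown, with the motif in capitals, since these genes are described in detail with the results.

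Rps3a1: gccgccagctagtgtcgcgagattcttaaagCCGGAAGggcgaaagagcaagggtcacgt

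Rps27l: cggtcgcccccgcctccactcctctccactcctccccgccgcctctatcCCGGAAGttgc

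These lie at chr3:86142649-86142708 (minus strand) for Rps3a1 and chr9:66946046-66946105 (plus) for Rps27l. The YY1 motif AAGATGGC was in 12.1% of member windows against 2.75% of all (both strands), the Sp1 motif GGGCGG in 60.3% against 35.7% (both strands), and TATAAA on the gene's strand in 6.9% against 8.32%. The 17 genes with CCGGAAG had a median change of -0.23, with 13 below 0, and the 29 without it had a median of -0.17, with 22 below 0. The 5 genes with the YY1 motif had a median of 0.01 (2 below 0) against -0.23 in the 41 without (33 below 0). For the Sp1 motif it was -0.26 in the 29 with it (22 below 0) against -0.13 in the 17 without (13 below 0). For TATAAA it was -0.28 in the 4 with it (3 below 0) against -0.17 in the 42 without (32 below 0). None of these shares was tested, and a match of letters is not a bound site.

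No ribosomal protein gene passed the test in either direction. At a Benjamini-Hochberg adjusted p of 0.05 in limma's test over all features, 0 of 60 were higher in Tet2-deficient macrophages, where 0.647% of all features were called, and 0 were lower, where 0.305% were called (0.952% in either direction). At an unadjusted p of 0.05 in the same limma fit, 16 members (26.7%) were lower and 3 (5%) higher, against 8.37% and 7.63% of all features. At an adjusted p of 0.1, 2 were lower, Rps20 and Rps27l, and 0 higher, against 1.27% and 1.86%. The whole table held 240 called features, 163 higher and 77 lower, and the smallest change among them was 0.58 in size, while the largest among the members was 0.85.

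Most members nevertheless had a negative change: 44 of 60 (73.3%), against 57.9% of all features. Their changes ran from -0.85 for Rpl7 to 0.63 for Rps15a with a median of -0.17, against a median of -0.04 over all features. In 14 members (23.3%; 12.2% of all features) every Tet2-deficient array lay below every wild-type array, and in 4 (6.67%; 9.74% of all features) every one lay above. Each is a small shift, and single-gene standard errors ran from 0.11 to 0.32. The members' median standard error was 0.171, against 0.142 over all features.

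Averaged over the 60 members, the log2 level was 4.844, 4.878 and 4.826 in the wild-type arrays and 4.605, 4.789 and 4.654 in the Tet2-deficient arrays. The groups did not overlap, and the highest Tet2-deficient array was replicate 2. Replicate 1 of the Tet2-deficient group was the lowest of all arrays for 23 of 60 members (38.3%), against 22.8% of all features. Without that array the members' median change was -0.15 and 42 of 60 were negative. No p is given for this average, since the members were chosen with results known.

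**Figure D1:**
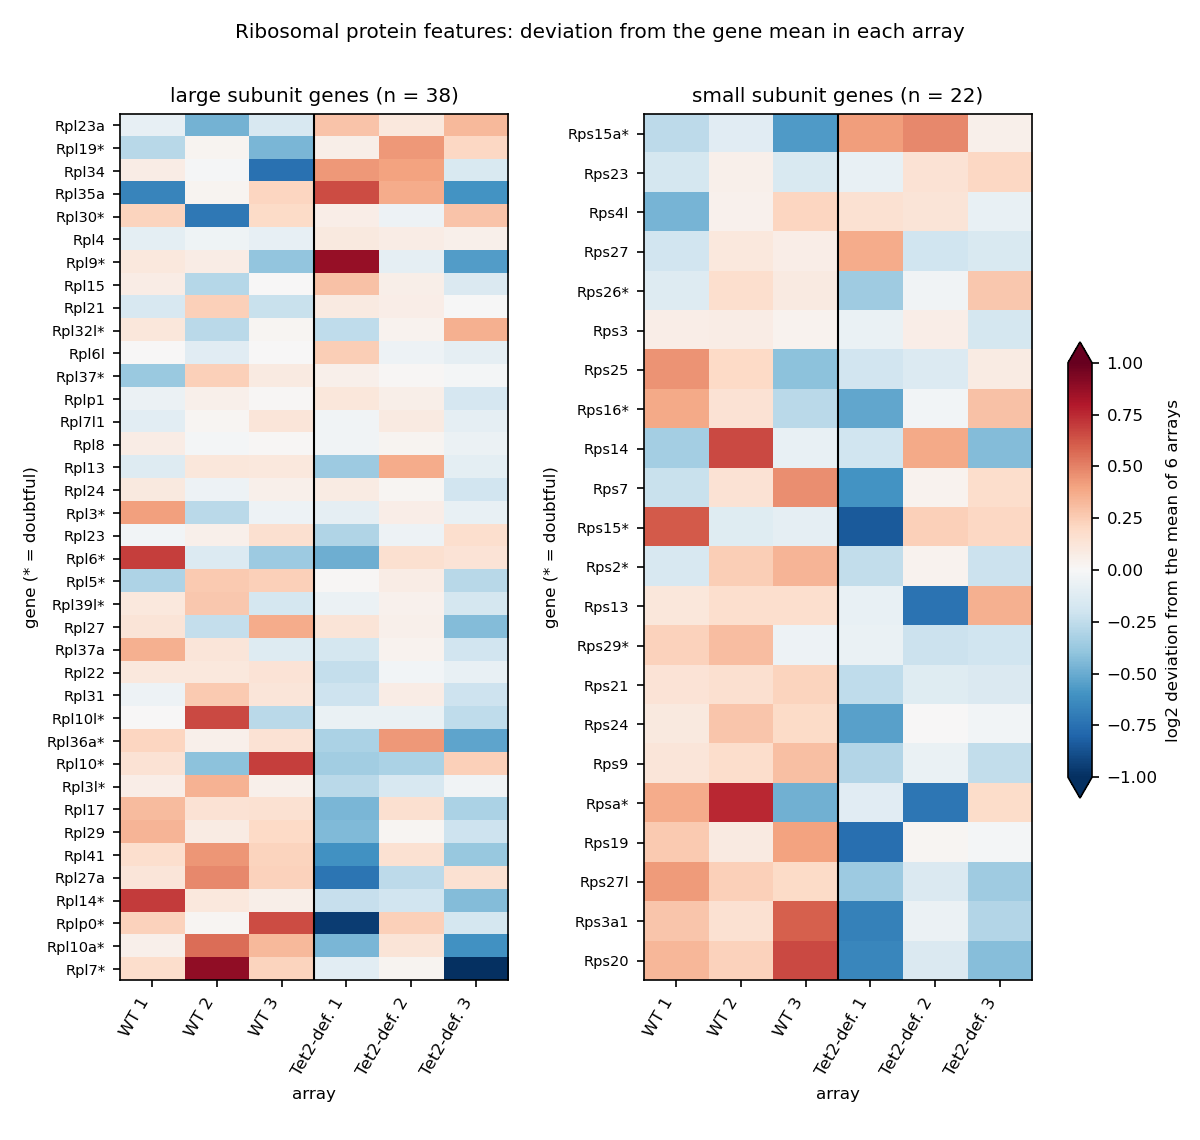
Each cell is a gene's log2 level in 1 array minus its mean over the 6 arrays, with large subunit genes on the left (38) and small subunit genes on the right (22), ordered by change; a star marks members at or below the array median in at least 1 array. Wild-type columns are mostly red and Tet2-deficient columns mostly blue towards the bottom, the top rows show the opposite, and Tet2-deficient replicate 1 holds the lowest value for 23 members.

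The values of a feature depend on its probes, so levels are not compared between genes, and a member at or below the median of an array was listed as doubtful. There were 24 such members, 13 of them below the median in all 6 arrays, and 36 members stood above it in every array. At the border, Rps15a lay 0.01 below the median in its lowest array and Rps25 lay 0.11 above it. The 36 members above the median had a median change of -0.17 with 26 below 0, and the 24 doubtful members had -0.22 with 18 below 0. The doubtful members scattered more, with a median residual SD of 0.298 against 0.201 in the others.

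The small subunit genes held the smallest p-values. Of 22, 18 were negative, the median change was -0.27, and 8 (36.4%) had the groups apart and lower and 1 (4.55%) apart and higher. Of the 38 large subunit genes, 26 were negative, the median change was -0.13, and 6 (15.8%) had the groups apart and lower and 3 (7.89%) apart and higher. Over all features these shares were 12.2% lower and 9.74% higher, so the shares in the large subunit lay near them. The difference between the subunits was not tested.

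Rps20, a protein of the head of the small subunit, read 7.79, 7.68 and 8.12 in wild-type arrays and 6.81, 7.31 and 7.03 in Tet2-deficient arrays. All 3 Tet2-deficient values lay below all wild-type values, a 1.76-fold lower mean. The change was -0.82 ± 0.17 (SE, n = 3 per group; 95% interval -1.19 to -0.44), with a limma adjusted p of 0.0570, the smallest of the 60. It passed the threshold among bright features alone (0.0260), under a robust prior trended on level (0.0206) and under array weights (0.0347), but in no fit that omitted an array. Bright features in this setting are those with a mean level above the median of all features.

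Rps27l, a paralogue of Rps27 known as a p53 target gene, gave 8.89, 8.71 and 8.66 in the wild type and 8.11, 8.32 and 8.11 in Tet2 deficiency. The groups did not overlap. Its change was -0.57 ± 0.13 (limma adjusted p = 0.0701), and it passed under the same 3 settings, at 0.0302, 0.0173 and 0.0476. Rps27 itself, whose zinc-finger protein sits on the small subunit, changed by 0.01 ± 0.17 (limma adjusted p = 0.983), with values from 4.81 to 5.38 and overlapping groups. The difference between the paralogues' changes was -0.58, with an exact two-sided permutation p of 0.1 (0.2 after adjustment over 4 paralogue pairs), the smallest p this design allows.

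Rps3a1, the main mouse Rps3a gene, read 4.87, 4.74 and 5.19 in wild-type arrays against 3.92, 4.53 and 4.30. The Tet2-deficient values were again all lower, with replicate 1 lowest, and the change was -0.68 ± 0.18 (limma adjusted p = 0.110). Rps19, the gene most often mutated in Diamond-Blackfan anaemia, gave 7.48, 7.31 and 7.62 against 6.46, 7.24 and 7.20. Here replicate 1 of the Tet2-deficient group stood far below replicates 2 and 3, which lay close to the lowest wild-type array, and the change was -0.50 ± 0.21 (limma adjusted p = 0.276).

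Rps9 and Rps21 had some of the smallest standard errors among the small subunit genes, and both were chosen for description after their values were seen. Rps9, a protein needed for accurate decoding, gave 10.40, 10.45 and 10.58 in wild-type arrays and 9.99, 10.21 and 10.03 in Tet2-deficient arrays, a change of -0.40 ± 0.12 (limma adjusted p = 0.154). Under the robust prior its adjusted p was 0.0348. Rps21, a small protein of the same subunit, gave 8.98 to 9.07 in wild-type arrays against 8.59, 8.72 and 8.70, a change of -0.34 ± 0.11 (limma adjusted p = 0.176). In both genes the groups did not overlap, and neither passed the test over all features.

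Other small subunit genes moved less or were noisier. Rps3, which lies at the messenger RNA entry channel and also takes part in DNA repair, read 6.02, 6.04 and 5.99 against 5.89, 6.03 and 5.78, and its groups overlapped (change -0.12 ± 0.12, limma adjusted p = 0.686). Rpsa, which doubles as a laminin receptor, ranged from 2.80 to 4.03 in wild-type and from 2.56 to 3.46 in Tet2-deficient arrays (-0.43 ± 0.31, adjusted p = 0.563) and was doubtful. Rps24, also with its groups apart, changed by -0.38 ± 0.16 (limma adjusted p = 0.299). Rps7, Rps13, Rps14 and Rps25 had changes from -0.30 to -0.16 with overlapping groups.

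Only 4 of the 22 small subunit genes had a positive change. The largest was Rps15a, at 3.88, 4.02 and 3.57 in wild-type and 4.55, 4.62 and 4.18 in Tet2-deficient arrays. Every Tet2-deficient value exceeded every wild-type value, a 1.55-fold higher mean, with a change of 0.63 ± 0.16 and a limma adjusted p of 0.107. Among features with a mean level above the median of all features, its limma adjusted p was 0.0498. It was doubtful by the narrowest margin of all members. Rps23, a protein of the decoding centre, changed by 0.19 ± 0.13 (limma adjusted p = 0.543) and Rps4l by 0.14 ± 0.18, both with overlapping groups, and the fourth was Rps27.

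**Figure D2:**
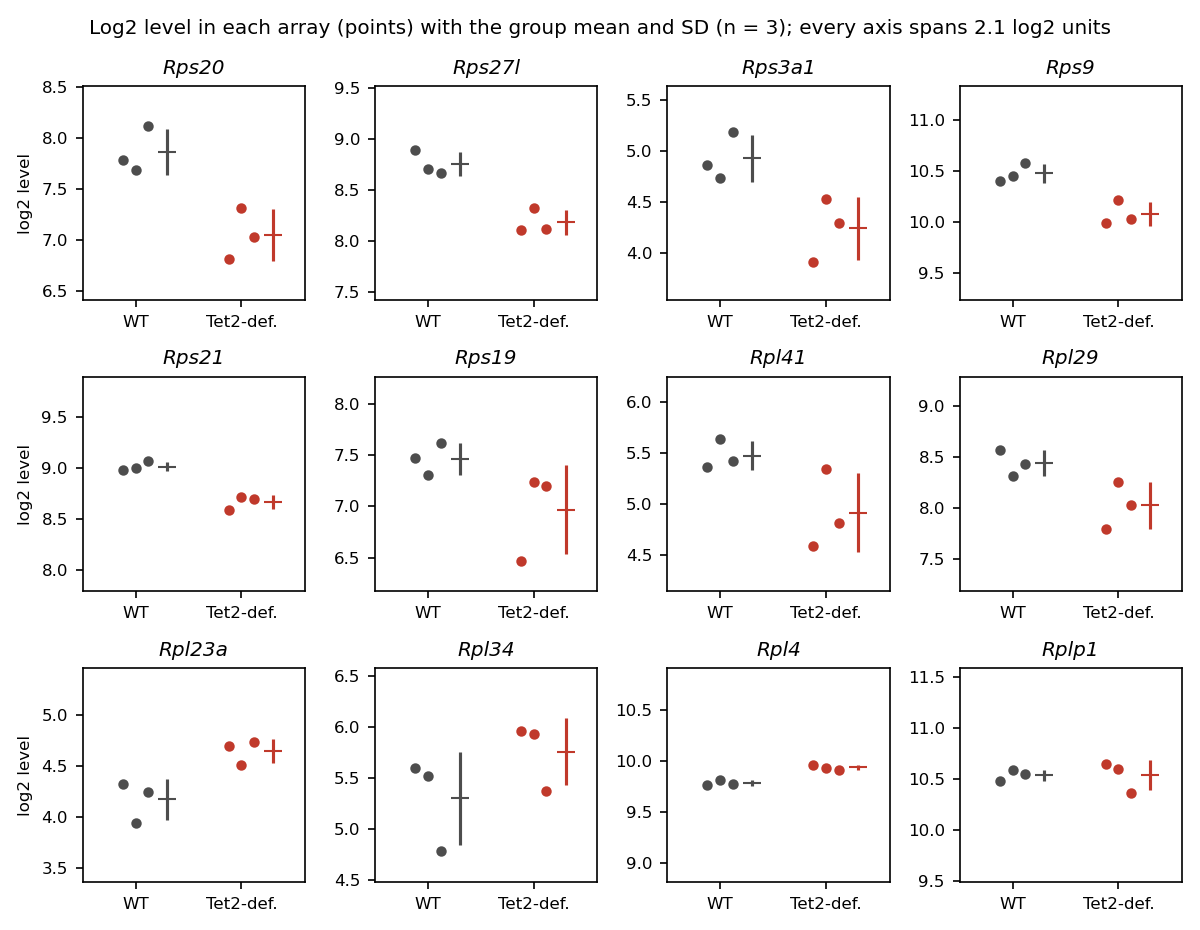
Log2 level in each array (points) with the group mean and SD (n = 3) for 12 members above the array median, wild-type in grey and Tet2-deficient in red; every vertical axis spans the same number of log2 units from a different origin. Rps20, Rps27l, Rps3a1, Rps9, Rps21, Rps19, Rpl41 and Rpl29 had all Tet2-deficient points below all wild-type points, Rpl23a and Rpl4 the opposite, and Rpl34 and Rplp1 overlapped.

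Among large subunit genes above the median, Rpl27a and Rpl41 had the largest negative changes. Rpl27a gave 4.68, 5.04 and 4.79 in wild-type arrays and 3.83, 4.30 and 4.71 in Tet2-deficient arrays, so replicate 3 of the Tet2-deficient group lay within the wild-type range (-0.56 ± 0.21, limma adjusted p = 0.235). Rpl41, the shortest ribosomal protein, gave 5.36, 5.63 and 5.41 against 4.59, 5.34 and 4.81. Its groups were apart by a narrow gap, and the change was -0.55 ± 0.19 (limma adjusted p = 0.195).

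Rpl29, which also binds heparin and was chosen after its values were seen, gave 8.57, 8.31 and 8.43 in wild-type and 7.79, 8.25 and 8.02 in Tet2-deficient arrays. The groups did not overlap (-0.42 ± 0.15, limma adjusted p = 0.207). Rpl22, an RNA-binding protein whose loss impairs the development of alpha-beta T cells, gave 10.21, 10.21 and 10.24 against 9.87, 10.08 and 10.03. Its wild-type arrays lay within 0.1 of each other and all Tet2-deficient arrays lay below them, yet the change was only -0.23 ± 0.12 (limma adjusted p = 0.382).

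The stalk of the large subunit, which recruits the translation factors that split GTP, is built from Rplp0, Rplp1 and Rplp2. Rplp1 had the highest reading of the members, at 10.48, 10.59 and 10.55 in wild-type arrays and 10.65, 10.60 and 10.37 in Tet2-deficient arrays. The groups overlapped, the change was 0.00 ± 0.12 and its 95% interval ran from -0.28 to 0.28 (limma adjusted p = 0.9997); centred on array medians it was 0.07. Rplp0, a common reference gene in PCR, gave 3.42, 3.21 and 3.84 against 2.24, 3.43 and 3.02. It was doubtful, its groups overlapped through Tet2-deficient replicate 2, and the change was -0.60 ± 0.28 (limma adjusted p = 0.342).

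A few large subunit genes read higher in Tet2-deficient cells. Rpl23a, at the exit of the peptide tunnel, gave 4.33, 3.94 and 4.25 in wild-type and 4.70, 4.51 and 4.73 in Tet2-deficient arrays, with the groups apart (0.48 ± 0.14, limma adjusted p = 0.141). Rpl4, which reaches into the peptide tunnel, gave 9.76, 9.82 and 9.78 against 9.96, 9.94 and 9.92. Its arrays varied little within either group, and the groups were apart, with a change of 0.15 ± 0.11 (limma adjusted p = 0.551). Rpl34 changed by 0.46 ± 0.24 (limma adjusted p = 0.393) and Rpl35a, another Diamond-Blackfan gene, by 0.28 ± 0.32 (limma adjusted p = 0.732), both with overlapping groups.

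The other large subunit genes above the median were Rpl17, with a change of -0.41 ± 0.17 (limma adjusted p = 0.270) and groups that overlapped through Tet2-deficient replicate 2, and Rpl31, Rpl37a, Rpl27, Rpl23, Rpl24, Rpl13, Rpl8, Rpl7l1, Rpl6l, Rpl21 and Rpl15. The changes of these 11 ran from -0.23 (Rpl31) to 0.14 (Rpl15), and all had overlapping groups. Rpl8, a protein near the peptidyl transferase centre, gave 8.75, 8.66 and 8.70 in wild-type and 8.64, 8.71 and 8.62 in Tet2-deficient arrays. The change was -0.04 ± 0.11, with a 95% interval from -0.29 to 0.21. Its sign turned when arrays were centred on their medians (0.02).

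**Figure D3:**
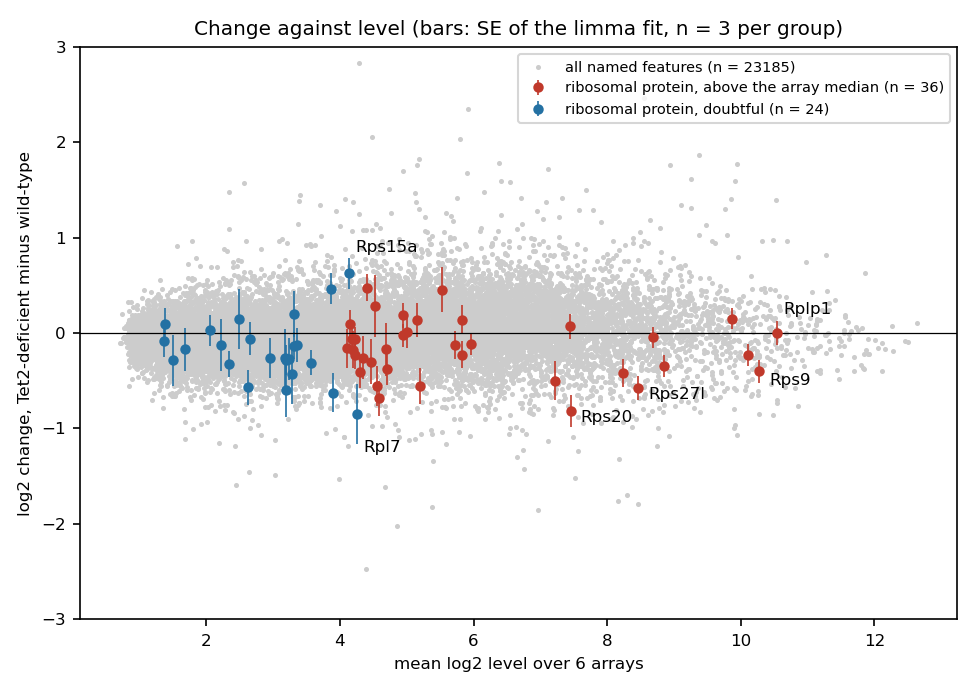
Change (Tet2-deficient minus wild-type, log2) against mean log2 level over 6 arrays for all named features in grey, for the 36 ribosomal protein features above the array median in red and for the 24 doubtful ones in blue, with bars for each standard error from limma (n = 3 per group). The members spread over nearly the whole range of levels, most lie below 0, and none reaches the large changes seen elsewhere in the table.

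The 11 members in the top 10% of all levels are the ones whose features read brightest. They were Rps19, Rpl6l, Rps20, Rpl29, Rps27l, Rpl8, Rps21, Rpl4, Rpl22, Rps9 and Rplp1. Of these 9 were negative, the median change was -0.34, 7 (63.6%) had groups apart and lower, and 1, Rpl4 (9.09%), apart and higher. Of all 2521 features in that range of levels, 21.8% were apart and lower and 28.6% apart and higher, with a median change of 0.04. The group was formed after the values were seen and carries no test.

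Among the 24 doubtful members, the largest negative change of all 60 belonged to Rpl7, a large subunit protein: 4.43, 5.14 and 4.48 in wild-type arrays and 4.15, 4.28 and 3.06 in Tet2-deficient arrays. The groups did not overlap, but replicate 3 of the Tet2-deficient group stood far below the rest, and the change of -0.85 ± 0.31 had a limma adjusted p of 0.226. Rpl10a gave 3.96, 4.46 and 4.23 against 3.44, 4.03 and 3.29, with overlapping groups (-0.63 ± 0.21, limma adjusted p = 0.180). Rpl14 changed by -0.57 ± 0.18 (limma adjusted p = 0.165) with its groups apart.

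Rpl19 gave 3.59, 3.89 and 3.41 in wild-type and 3.92, 4.30 and 4.08 in Tet2-deficient arrays, with the groups apart and a change of 0.47 ± 0.16 (limma adjusted p = 0.191). Rpl10, which completes the maturation of the large subunit, ranged from 1.10 to 2.19 in wild-type and from 1.15 to 1.74 in Tet2-deficient arrays, well below every array's median (-0.29 ± 0.26, adjusted p = 0.659). Rpl5, which with Rpl11 brings 5S RNA into the ribosome, changed by -0.13 ± 0.18 (limma adjusted p = 0.779). For these abundant transcripts, a reading below the array median describes the feature and gives no estimate of the transcript's amount.

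The remaining doubtful members were Rps2, Rps15, Rps16, Rps26, Rps29, Rpl3, Rpl6, Rpl9, Rpl30, Rpl32l, Rpl36a and Rpl37 with the paralogues Rpl3l, Rpl10l and Rpl39l. Their changes ran from -0.32 (Rps29, groups apart) to 0.20 (Rpl30). Rps26 had the lowest mean level of the 60, at 1.37. None of the changes of Rps2, Rps15, Rps16, Rps26, Rpl3, Rpl6, Rpl9, Rpl30, Rpl32l, Rpl36a, Rpl37, Rpl10l and Rpl39l separated the groups.

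Some of the paralogues replace a general ribosomal protein in particular tissues. Rpl3l, a muscle paralogue of Rpl3, gave 3.64, 3.92 and 3.62 in wild-type and 3.31, 3.41 and 3.54 in Tet2-deficient arrays. Its groups were apart, with a change of -0.31 ± 0.13 (limma adjusted p = 0.291), while Rpl3, which lies next to the catalytic centre, changed by -0.06 ± 0.17, a value whose sign turned to 0.0042 under median centring and under cyclic loess. The difference between these changes was -0.25 (exact two-sided permutation p = 0.6; 0.8 over the 4 pairs). For Rpl10l, a testis paralogue, against Rpl10 it was 0.02 (exact p = 1), and for Rpl7l1 against Rpl7 it was 0.83 (exact p = 0.1; 0.2 over the 4 pairs). Rpl39l, also a testis gene, changed by -0.13 ± 0.14 (limma adjusted p = 0.719).

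Pseudogene features and mitochondrial ribosomal proteins give a measure of related features. The 18 features of ribosomal protein pseudogenes, whose transcripts can share sequence with the members, had a median change of -0.18 with 14 negative and 0 called. The 76 mitochondrial ribosomal protein genes, which build a separate ribosome, had a median of -0.18 with 62 negative (81.6%), 2 called lower and 0 higher, against 57.9% of all features negative, 0.305% called lower and 0.647% called higher. The members' median was -0.17, and the differences were not tested. Of ribosomal proteins whose symbols lie outside the pattern, Fau (-0.24 ± 0.14, limma adjusted p = 0.438) and Rpl36al (-0.27 ± 0.12, limma adjusted p = 0.307) were measured.

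Translation factors were examined beside the ribosome. For these and the other lists of translation genes that follow, the shares of all features called were 0.305% lower and 0.647% higher. Of 12 elongation factor genes 0 passed in either direction, with a median change of -0.06. Eef1a1, which delivers aminoacyl-tRNA to the ribosome and carries a TOP motif itself, gave 6.27, 6.44 and 6.27 in wild-type and 5.72, 5.88 and 5.80 in Tet2-deficient arrays, a change of -0.52 ± 0.12 with the groups apart (limma adjusted p = 0.0715). Its exchange factor subunit Eef1b2 changed by -0.38 (adjusted p = 0.183) and Eif5a2 by -0.44 (adjusted p = 0.177). Of 29 initiation factor genes 0 passed, with a median of 0.02, and Eif3d (0.33, adjusted p = 0.272), Eif3b (0.28, adjusted p = 0.279) and Eif2b4 (-0.33, adjusted p = 0.292) had the smallest p-values.

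Of 19 other TOP transcripts 0 passed, with a median change of -0.06. Npm1, a nucleolar chaperone of ribosome assembly, gave 6.02, 6.15 and 6.32 in wild-type and 4.72, 5.66 and 5.42 in Tet2-deficient arrays. The groups were apart, with replicate 1 of the Tet2-deficient group lowest, and the change was -0.90 ± 0.22 (limma adjusted p = 0.0930). Btf3, part of the complex that binds emerging peptides, changed by -0.59 (limma adjusted p = 0.167).

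Of 60 ribosome biogenesis factors 1 was called lower and 0 higher, against 0.305% and 0.647% of all features, with a median change of 0.04. Rpf2, which helps to place the 5S particle into the large subunit, gave 6.65, 6.37 and 6.76 in wild-type and 5.85, 5.86 and 5.94 in Tet2-deficient arrays, with the groups well apart (-0.71 ± 0.13, limma adjusted p = 0.0466). The call was lost whichever of the 6 arrays was left out, with adjusted p from 0.0533 to 0.177, and also with arrays centred on their medians (0.0786), with a replicate block (0.0565) and with the gene-span trend removed (0.0505). Utp20 (0.53, adjusted p = 0.0650) and Heatr1 (0.63, adjusted p = 0.0734), factors of early small subunit assembly, were on the other side.

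Of 19 genes of RNA polymerase I and its factors 1 was called lower and 0 higher, with a median of -0.08. Over all features 0.305% were called lower and 0.647% higher. Polr2k, a small subunit shared by all nuclear RNA polymerases, gave 3.13, 3.19 and 2.98 against 2.34, 2.21 and 2.36, below the array median in all 6 arrays (-0.80 ± 0.12, limma adjusted p = 0.0221). Its call was also lost in each of the 6 fits with an array left out (0.0561 to 0.0957). Twistnb changed by -0.36 (adjusted p = 0.175) and Rrn3, the initiation factor of polymerase I, by 0.34 (adjusted p = 0.202).

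Of 22 genes of mTORC1 and TOP translation control 0 passed, with a median of -0.11. The list was mixed, with 15 negative and 7 positive changes. Mtor itself changed by 0.39 with the groups apart and higher (limma adjusted p = 0.222). Lamtor1, the anchor of the complex that brings mTORC1 to the lysosome, changed by -0.50 (limma adjusted p = 0.0715) and Lamtor3, another subunit, by -0.45 (adjusted p = 0.171), while Tsc2, an mTORC1 inhibitor, changed by 0.45 (adjusted p = 0.109). Of 4 measured GAIT complex partners 0 passed, with a median of 0.29. Eprs, which carries the complex to its target RNA, changed by 0.49 ± 0.13 (limma adjusted p = 0.108), Dapk1 by 0.45 (adjusted p = 0.249) and Dapk3 by -0.24 (adjusted p = 0.424).

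**Figure D4:**
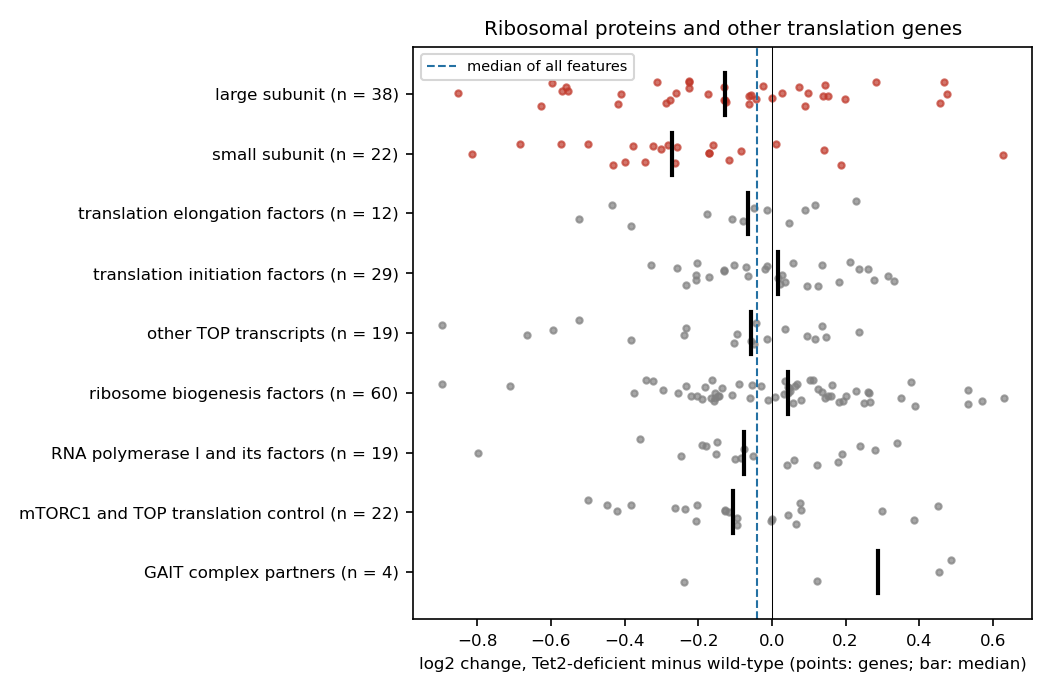
Each point is a gene's change (Tet2-deficient minus wild-type, log2), by list, with a bar at the list's median and a dashed line at the median of all features (-0.04). Large and small subunit genes, in red, have medians of -0.13 and -0.27, while initiation factors (0.02) and ribosome biogenesis factors (0.04) lie about 0.

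Ribosomal protein genes are short, and change varied with the length of the gene in the genome. The median span of the members was 3169.5 bp (592 to 11774), against 15555 bp over all features with a span. In the span range that held 39 members (976 to 4680 bp) all features had a median change of -0.08 and those members -0.23, and in the next range (4680 to 15555 bp) the medians were -0.06 and -0.13, with 18 members. The 3 members in the shortest range (38 to 976 bp) had a median of 0.09 against -0.08 over all features there. They were Rpl32l, which was doubtful, and Rpl6l and Rps4l, which RefSeq lists as pseudogenes. With the trend over gene span removed, a setting added after the data were seen, the members' median was -0.10 and 38 of 60 were negative. What underlies the trend was not tested.

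The arrays correlated with each other at 0.983 to 0.991. The Tet2 feature itself was not lower in the Tet2-deficient arrays, at 5.40, 5.07 and 5.10 in wild-type and 5.55, 5.25 and 5.75 in Tet2-deficient arrays (0.32 ± 0.16, limma adjusted p = 0.365); which part of the gene is deleted is not given in the sources used here, so the directions above rest on the labels. The defining macrophage markers Cd68 (10.63 to 10.73) and Adgre1 (10.04 to 10.31) read high in all 6 arrays, as a check of the labelled cell type. For the marker lists that follow, the shares of all features called were 0.647% higher and 0.305% lower. Levels summed over 10 of 10 resident peritoneal macrophage markers were 1640 to 1918 on the linear scale in wild-type and 2696 to 3499 in Tet2-deficient arrays, with 3 called higher (Timd4, F5 and Prg4). Sums over 8 of 10 general macrophage markers were 6567 to 6772 against 8087 to 8485, with 2 called higher, Cd14 and Itgam. Without these 2 genes the sums overlapped, at 5026.5 to 5185.8 against 4842.7 to 5545.1, and Mertk (-0.10), Fcgr1 (-0.51) and Aif1 (-0.76, groups apart) had negative changes. Sums over 7 of 7 monocyte markers were 852.7 to 1197 against 2082 to 2743, with 1 called higher, Fn1. Without Fn1 they overlapped, at 362.6 to 481.9 against 399.3 to 640.5, and 3 of the 7 markers had negative changes.

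In the lists of neutrophil (10 of 10 measured), B cell (7 of 8), T and NK cell (9 of 10), dendritic cell (8 of 8), eosinophil and mast cell (8 of 9), mesothelium and fibroblast (11 of 11) and erythroid genes (3 of 5), 0 were called in either direction. The summed neutrophil level was 239.7 to 328 in wild-type and 284.9 to 544 in Tet2-deficient arrays. Most of this sum came from S100a8 (change 0.53, groups overlapping, limma adjusted p = 0.397). Of the 10 neutrophil changes 5 were negative and 5 positive. The summed mesothelium and fibroblast level was 202 to 280 in wild-type arrays and 283.5, 550.6 and 219.9 in Tet2-deficient replicates 1, 2 and 3. Replicate 2, the highest, was also the Tet2-deficient array with the highest members' average. In this list Dcn, a matrix proteoglycan of fibroblasts, had a change of 1.26 with the groups apart (limma adjusted p = 0.0715). It was the largest of the 11 changes, and 3 were negative: Wt1 (-0.21), Krt8 (-0.17) and Krt19 (-0.15). The resident macrophage sums did not overlap between genotypes, in the direction opposite to the members' average, and the part of these cell type markers in the members' values was not tested. In bulk RNA, fewer cells of a type and less RNA per cell cannot be told apart.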

How the data were processed

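Total RNA of 6 macrophage cultures was hybridised to Affymetrix whole-transcript arrays, 1 feature per gene. The deposited values are on the log2 scale and were made by the authors with RMA in affy 1.36.1, per the submitters' processing notes. Beyond a whole-transcript Affymetrix array, the sources used here do not name the array model, nor its probe sets, genome build or filters. RMA draws all arrays to a shared distribution (sorted values differed by at most 0.27 between arrays), so a change of all genes alike cannot be seen. Depth does not apply to arrays, and their number limits precision. Of 25206 features, 23185 had 1 symbol in the platform annotation and 2021 had none.

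The genotypes were compared in limma 3.58.1 (R 4.3.3; lmFit, then eBayes) on the whole table, two-sided, Benjamini-Hochberg adjusted over all features, threshold 0.05. The code was tested on simulated data. The labels call the samples biological replicates of 3 mice per group. The members and gene lists were chosen with earlier results of these data known. Genes were named by rule: translation genes listed by symbol (the stalk, Rps3, Rps19, Rpl5, Rpl10, Rpl22, Rpsa and the paralogue pairs), the 5 largest changes each way among members above the array median in every array, the highest and lowest members, every doubtful member, and in other lists the called genes and the 3 smallest p-values. Rps9, Rps21, Rpl29, Rpl8, the other members given by range and Mtor were named after their values were seen. Alternatives were other scalings between arrays, dim features left out, another prior, array weights, a replicate block, features with a symbol only, doubtful members or paralogues left out, a threshold of 0.1 and each array left out.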

Additional observations from a re-analysis of the deposited data

How the results depend on the processing

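The number of called features was 240 and became 846 among bright features alone, 814 under a robust prior trended on level, 498 with array weights, 791 at an adjusted p of 0.1 and 11 to 155 with an array left out (155, 67 and 25 without wild-type replicates 1, 2 and 3, and 27, 114 and 11 without Tet2-deficient replicates 1, 2 and 3). Of the 240 calls 67.92% were higher, against 78.75% with arrays centred on their medians and 59.59% with cyclic loess or quantile normalization. Among bright features alone (mean level above the median of all features) 2 of 41 members were called lower and 1 higher. In that set 846 of 12603 features were called, 62.29% of them higher. Under that prior 3 of 60 members were called lower, where 814 of 25206 features were called, 61.06% of them higher. With array weights 2 of 60 were called lower, where 498 features were called, 63.86% of them higher. At an adjusted p of 0.1 it was 2 of 60, against 1.27% of all features called lower. No member passed with an array left out. The labels state no pairing by replicate number, so the numbers were not taken to pair the samples. Same-numbered arrays had deviations from their group means correlated at 0.08, 0.19 and 0.02. With 3 arrays per group these values cannot exclude a pairing. The replicate block gave 230 called features and 0 members. The members' median change stayed between -0.20 and -0.15 with an array left out, was -0.11 with arrays centred on their medians (38 negative) and -0.10 with the gene-span trend removed. Of the 36 members above the array median in every array 10 were positive.

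Changes near 0 turned sign. Centred on array medians they were 0.0079 (Rpl13), 0.00429 (Rpl24), 0.00424 (Rpl3), 0.0405 (Rpl7l1), 0.0228 (Rpl8) and 0.0658 (Rplp1), and with the gene-span trend removed 0.0168 (Rpl13), 0.00482 (Rpl24), 0.00253 (Rpl3), 0.0243 (Rpl7l1), 0.0321 (Rpl8) and 0.0764 (Rplp1). Rpl3 was 0.0042 with cyclic loess, and Rps27 was -0.0201 with quantile normalization and -0.0422 with array weights. With an array left out the ranges that crossed 0 were -0.462 to 0.00216 (Rpl10l), -0.258 to 0.108 (Rpl13), -0.117 to 0.0177 (Rpl24), -0.335 to 0.00264 (Rpl27), -0.211 to 0.128 (Rpl3), -0.11 to 0.36 (Rpl30), -0.0654 to 0.24 (Rpl32l), -0.15 to 0.152 (Rpl37), -0.34 to 0.185 (Rpl6), -0.0335 to 0.135 (Rpl6l), -0.0824 to 0.0295 (Rpl7l1), -0.253 to 0.46 (Rpl9), -0.0554 to 0.0851 (Rplp1), -0.404 to 0.118 (Rps14), -0.447 to 0.0905 (Rps15), -0.361 to 0.0476 (Rps16), -0.406 to 0.0253 (Rps25), -0.24 to 0.073 (Rps26), -0.17 to 0.115 (Rps27) and -0.0572 to 0.281 (Rps4l). The cause of these shifts was not tested.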
